A study of Mus musculus with 8 samples.

Results

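The ribosomal protein paralogs *Rpl39l*, *Rps4l*, *Rpl3l*, *Rpl22l1* and *Rpl10l* were examined in mouse fetal hearts together with their standard partners *Rpl39*, *Rps4x*, *Rpl3*, *Rpl22* and *Rpl10*. Every probe set of the Affymetrix Mouse430 array that the annotation assigns to 1 of these 10 genes was taken, out of 45101 probe sets and 19324 named genes. Of the 10 genes, 9 had a probe set, and no probe set listed *Rpl10l*. The 15 probe sets found comprise 10 that are annotated to 1 gene only, which cover 7 genes, and 5 that are shared with pseudogenes and are given apart. *Rpl39l* and *Rps4l* were chosen because their values differed between the genotypes on these same arrays, so their genotype differences are a description and carry no test.

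The arrays measured total RNA of intact hearts from 5 wild-type embryos and 3 embryos homozygous for the 2lox allele of *Kdm1a* (also *Aof2*, which encodes the histone demethylase Lsd1), all at E18.5, with 1 array per heart. The 2lox allele is the floxed allele before any recombination by Cre. It carries point mutations in the tower domain of the protein and acts as a hypomorph, although the sample labels also name the 2lox/2lox hearts as knock-outs. The study describes the animals of both genotypes as littermates, and the strain and the litter of each heart are not given in the sources used here.

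A ribosome holds a single copy of most of its proteins, and nearly all of them are encoded by genes that are transcribed at a high, coordinated level in every cell. A few genes have paralogs whose product can take the same place in the ribosome. *Rpl39l* is known as a testis form of *Rpl39*, *Rpl10l* as a testis form of the X-linked gene *Rpl10*, and *Rpl3l* as a form of *Rpl3* in striated muscle, whereas *Rpl22l1* is widely expressed beside *Rpl22*.

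The authors had normalized the log2 expression levels before deposit, with array medians of 5.03 to 5.10 and array maxima of 14.42 to 14.55. The lower quartile of all values was 4.21, and levels near it may be background. The labels were checked with *Kdm1a*, whose 2 probe sets were lower in every 2lox/2lox heart, by 0.83 (8.15 ± 0.10 against 8.98 ± 0.08) and by 0.81 (9.51 ± 0.06 against 10.31 ± 0.04; SD, n = 3 and n = 5), with limma adjusted p-values of 0.00176 and 0.000515. The tissue was checked with 12 cardiomyocyte markers, whose mean level was 12.64 to 12.79 in the wild-type and 12.78 to 12.86 in the 2lox/2lox hearts. *Xist* was high in 2lox/2lox heart 3 (10.88) and wild-type heart 2 (10.59) and lay between 4.61 and 4.94 in the other 6 hearts, so each group holds 1 heart with high *Xist*. The control probe sets of *Actb* and *Gapdh* gave a mean 3′ minus 5′ difference of 0.52 and 0.50 in 2lox/2lox hearts 1 and 2, 0.33 in 2lox/2lox heart 3 and 0.32 to 0.38 in the wild-type hearts. The control probe set for the 5′ end of 18S RNA, the RNA of the small subunit, lay at 8.45 to 9.07 in the 2lox/2lox and 9.55 to 11.49 in the wild-type hearts without overlap, and its log2 fold change of −1.97 (SE 0.39) did not pass (limma adjusted p = 0.149). The 18S control sets for the middle and the 3′ end overlapped between the groups, at −0.47 (SE 0.31) and −0.17 (SE 0.28).

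Across the 15 probe sets, those of *Rpl39l* and *Rps4l* were past the threshold of an adjusted p of 0.05 in limma, both higher in the 2lox/2lox hearts, and the other 13 were not. Over all probe sets 36 passed, or 0.0798%, with 28 higher (0.0621%) and 8 lower (0.0177%). Since these results chose both genes, nothing is read from that count. *Rps4l* was no longer past the threshold when any heart other than 2lox/2lox heart 3 was left out (log2 fold changes of 0.54 to 0.63 over all 8 fits without 1 heart). Without 2lox/2lox heart 3, 797 of 45101 probe sets passed. Neither gene was past the threshold with the replicate number as a block, where 0 of 45101 probe sets passed. Wild-type hearts 4 and 5 have no same-numbered partner and do not inform the genotype difference in that fit. Whether those numbers pair the hearts is not given. The 13 probe sets that did not pass had log2 fold changes from −0.17 to 0.22 with a median of −0.028, against −0.0036 over all probe sets. The wild-type SD of the 15 probe sets ran from 0.020 to 0.17, and 10 lay under 0.099, the median wild-type SD of all probe sets.

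**Figure D1:**
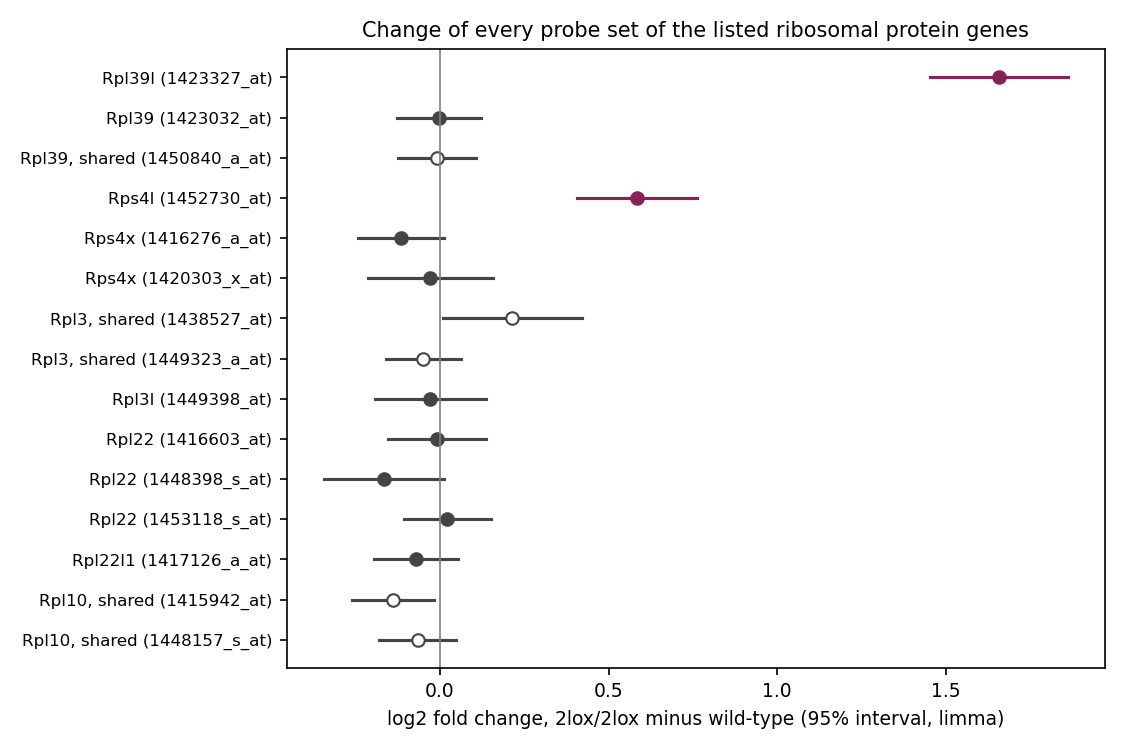
The log2 fold change of each of the 15 probe sets is plotted, 2lox/2lox minus wild-type, with its 95% interval from limma over 3 and 5 hearts; filled points are annotated to 1 gene and open points to several, and the purple points are past the threshold. *Rpl39l* at 1.66 and *Rps4l* at 0.58, both chosen for these values, stand to the right of the other 13, which lie between −0.17 and 0.22.

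*Rpl39l* encodes a small protein of the large subunit that lines the exit tunnel, and its own probe set was near background in the wild-type hearts. Its log2 levels were 4.14, 4.26, 4.28, 4.20 and 4.41 in wild-type hearts 1 to 5. They were 5.84, 5.77 and 6.13 in 2lox/2lox hearts 1 to 3. Every 2lox/2lox heart lay above every wild-type heart, with more than 1 log2 unit between the groups, and 2lox/2lox heart 3 was the highest. The group means were 5.91 ± 0.19 (SD, n = 3) and 4.26 ± 0.10 (SD, n = 5), a difference of 1.66 (SE 0.09) or 3.15-fold. The wild-type mean is close to the lower quartile of all values, 4.21, so the fold can be too small.

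*Rpl39*, the standard gene in the same place of the ribosome, is X-linked. Its own probe set read 5.76, 5.60, 5.72, 5.68 and 5.66 in the wild-type hearts and 5.69, 5.69 and 5.67 in the 2lox/2lox hearts. The 3 hypomorphic hearts fell inside the wild-type range, and the log2 fold change was −0.0013 (SE 0.056, 95% interval −0.13 to 0.12, limma adjusted p = 0.996). A brighter probe set is shared by *Rpl39* and the transcribed pseudogene Gm32211. It read 13.94 to 14.01 in the wild-type and 13.92 to 14.01 in the 2lox/2lox hearts, again with overlap, and its log2 fold change was −0.0076 (SE 0.052, 95% interval −0.12 to 0.11, limma adjusted p = 0.978). This level is close to the array maxima, where an array can compress differences. The own probe set lay far below the shared one (wild-type means of 5.68 and 13.97). How well it reads the *Rpl39* transcript was not tested. Within these limits no fall of *Rpl39* was detected beside the higher *Rpl39l*, and the 95% intervals of both probe sets lie between −0.13 and 0.12.

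The promoters of this pair are shown because both genes serve the same position of the ribosome while only the paralog was chosen for a genotype difference. Each sequence is the 250 bases before the annotated start, 5′ to 3′ on the strand of the gene, from RefSeq on GRCm38.p6, and the capitals mark matches to CCGGAAG, a core that ETS factors are known to bind. *Rpl39l* lies on chromosome 16 (chr16:10169978-10170227, plus strand) and *Rpl39* on chromosome X (chrX:37085223-37085472, minus strand).
Rpl39l: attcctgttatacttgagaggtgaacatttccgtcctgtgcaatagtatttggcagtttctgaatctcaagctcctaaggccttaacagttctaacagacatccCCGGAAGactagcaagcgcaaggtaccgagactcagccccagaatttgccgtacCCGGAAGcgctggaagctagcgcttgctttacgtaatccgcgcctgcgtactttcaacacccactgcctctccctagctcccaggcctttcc
Rpl39: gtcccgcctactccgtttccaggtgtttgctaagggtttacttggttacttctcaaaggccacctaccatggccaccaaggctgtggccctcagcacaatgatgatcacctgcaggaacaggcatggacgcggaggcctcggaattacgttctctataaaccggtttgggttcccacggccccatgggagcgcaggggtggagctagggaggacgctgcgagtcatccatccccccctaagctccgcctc

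The *Rpl39l* sequence holds 2 such matches, which begin at −146 and −92 relative to the start, and the *Rpl39* sequence holds none. This motif was picked after the sequences were seen. On both strands it occurs in 6.91% of the 32851 promoters of the table, and in 1 of the 10 promoters found for 8 of the listed genes, with *Rps4l* and *Rpl3* not among them. The E-box CACGTG was in none of the 10 (6.02% of all promoters), and TTCCCGC, a core known for E2F factors, was in 1, that of *Rpl10l* (3.82%). A match is only a run of letters, and binding was not measured. The longest pyrimidine run within 50 bases of the start was 14 bases in *Rpl39* and 9 in *Rpl39l*. The median was 7 over all promoters and 11 over 63 promoters of 54 other ribosomal protein genes. The *Rpl39* run begins at +37 and reaches the edge of the window, so it may be longer. The *Rpl39l* run begins at −26, and neither run spans the start. Both promoters held 12 CpG, against a median of 6.

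**Figure D2:**
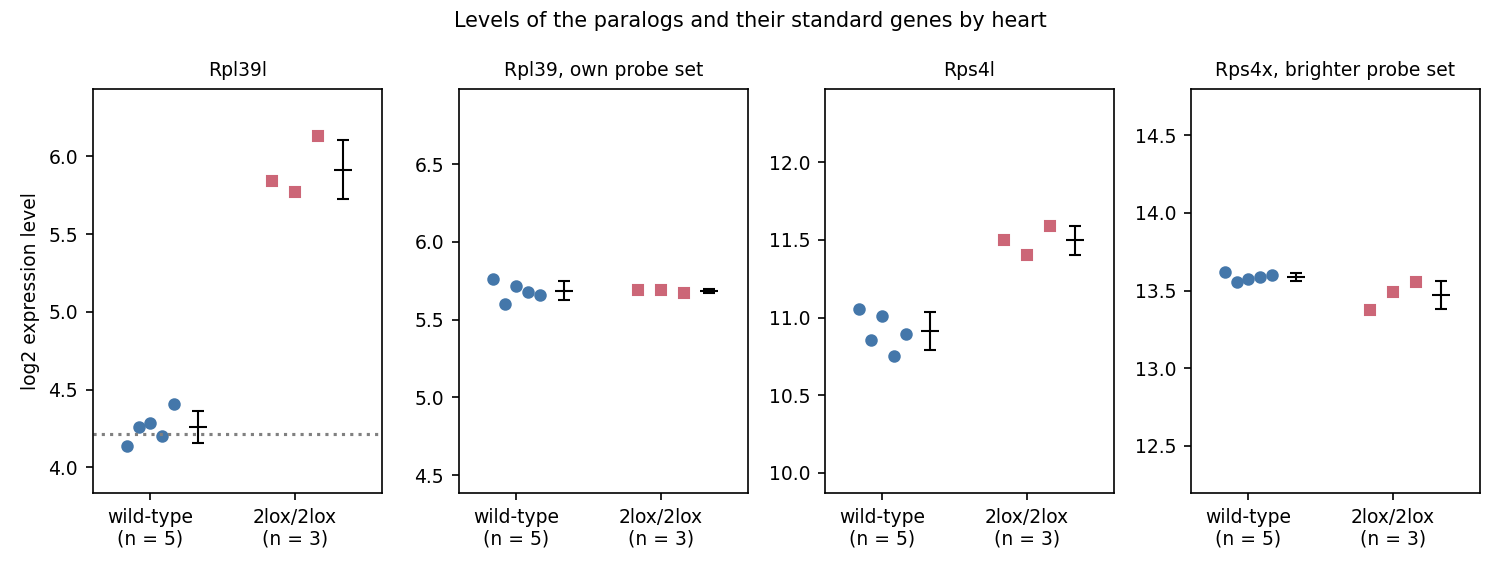
The log2 expression level of each heart is plotted for *Rpl39l*, *Rpl39*, *Rps4l* and *Rps4x*, with circles for 5 wild-type and squares for 3 2lox/2lox hearts, and the cross with bars giving the mean ± SD; the vertical axes differ in position but have the same span, and a dotted line marks 4.21, the lower quartile over all arrays. The groups stand apart for *Rpl39l* (4.14 to 4.41 against 5.77 to 6.13) and *Rps4l* (10.75 to 11.05 against 11.40 to 11.59), overlap for *Rpl39*, and touch for *Rps4x*.

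*Rps4l* is a copy of the small-subunit gene *Rps4x* that the RefSeq gene table classes as a transcribed pseudogene on chromosome 6. Its probe set read 11.05, 10.86, 11.01, 10.75 and 10.90 in wild-type hearts 1 to 5 and 11.50, 11.40 and 11.59 in 2lox/2lox hearts 1 to 3. All 3 hypomorphic hearts were above the highest wild-type heart, and 2lox/2lox heart 3 was again the highest. The means were 11.50 ± 0.09 (SD, n = 3) and 10.91 ± 0.12 (SD, n = 5), which differ by 0.58 (SE 0.08) or 1.5-fold. Unlike *Rpl39l*, this probe set was far above background in the wild-type hearts. The probe letters are not used here, so how much of its signal comes from the transcripts of *Rps4x* or other copies was not tested.

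*Rps4x*, an X-linked gene for a protein of the small subunit, had a bright probe set at 13.62, 13.55, 13.58, 13.59 and 13.60 in the wild-type hearts and at 13.37, 13.49 and 13.55 in the 2lox/2lox hearts. The 2lox/2lox hearts were all lower, but heart 3 missed the lowest wild-type heart by less than 0.01, and these are the 2 hearts with high *Xist*. The log2 fold change of −0.11 (SE 0.058, 95% interval −0.24 to 0.01) did not pass (limma adjusted p = 0.516), and it was −0.040 in a fit that included the 3′ minus 5′ difference. With 1 heart left out the change of *Rps4x* ran from −0.15, without 2lox/2lox heart 3, to −0.065, without 2lox/2lox heart 1. Its dim probe set overlapped between the groups at 4.68 to 4.96 in wild-type and 4.59 to 4.83 in 2lox/2lox hearts, with a log2 fold change of −0.028 (SE 0.083, limma adjusted p = 0.949).

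The paralog was set against its standard gene within each heart, by subtracting the log2 level of the standard gene. The size of such a difference depends on the probes, so only its change between genotypes can be read. For *Rpl39l* minus *Rpl39* the difference was −1.43 ± 0.14 (SD, n = 5) in the wild-type and 0.23 ± 0.20 (SD, n = 3) in the 2lox/2lox hearts, a change of 1.66 (SE 0.12). The shared probe set in place of the own one of *Rpl39* gave the same 1.66 (SE 0.10). For *Rps4l* minus *Rps4x* it was −2.67 ± 0.11 (SD, n = 5) and −1.97 ± 0.11 (SD, n = 3), a change of 0.70 (SE 0.08), beside log2 fold changes of 0.58 for *Rps4l* and −0.11 for *Rps4x*, which did not pass. In both pairs every hypomorphic heart was above every wild-type heart. Because the paralogs were chosen on this contrast, these changes too are descriptions.

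**Figure D3:**
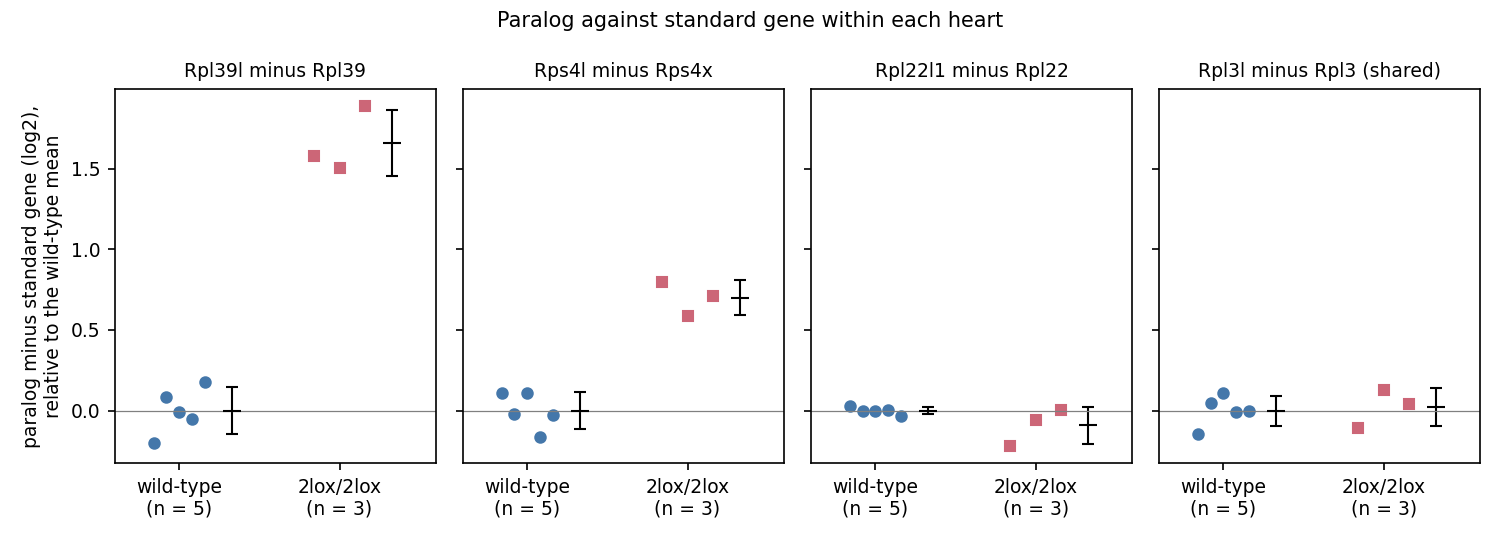
The log2 difference of paralog minus standard gene within each heart is plotted relative to its wild-type mean for 4 pairs, with circles for 5 wild-type and squares for 3 2lox/2lox hearts and the cross with bars for the mean ± SD. The 2lox/2lox hearts lie above all wild-type hearts for *Rpl39l* (change 1.66) and *Rps4l* (0.70) and overlap with them for *Rpl22l1* (−0.092) and *Rpl3l* (0.021).

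*Rpl22* and *Rpl22l1* encode alternative RNA-binding proteins of the large subunit and were not chosen for their values. *Rpl22l1* read 12.07, 11.95, 12.07, 12.07 and 12.03 in the wild-type and 11.92, 11.97 and 12.02 in the 2lox/2lox hearts. The groups overlapped, and the log2 fold change was −0.069 (SE 0.056, 95% interval −0.19 to 0.06, limma adjusted p = 0.729). *Rpl22* has 3 probe sets, none of which passed. The brightest read 12.87 to 12.99 in wild-type and 12.93 to 13.06 in 2lox/2lox hearts with a log2 fold change of 0.022 (SE 0.058), and the second read 11.61 to 11.75 and 11.56 to 11.74 with −0.0088 (SE 0.065). The third was lowest in 2lox/2lox heart 1 at 9.44 and gave −0.17 (SE 0.080, limma adjusted p = 0.492) with overlap, so the probe sets of this gene differ in sign. The pair differed by −0.89, −0.92, −0.92, −0.91 and −0.95 in the wild-type hearts and by −1.14, −0.97 and −0.92 in the 2lox/2lox hearts. Heart 1 was the lowest and heart 3 lay inside the wild-type range, and the change of −0.092 (SE 0.051) had p = 0.0714 in a two-sided exact permutation test over the 56 splits of 8 hearts, which can reach 0.0179. Without 2lox/2lox heart 1 the change was −0.027 (exact permutation p = 0.381) and without 2lox/2lox heart 3 it was −0.14 (exact permutation p = 0.0476). When a 2lox/2lox heart is left out fewer splits remain, and 0.0476 is the smallest p they can give. With the mean of all 3 *Rpl22* probe sets the change was −0.019 (exact permutation p = 0.75). *Rpl22* lies on chromosome 4, the chromosome of *Kdm1a*, at a distance of 15.8 Mb.

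*Rpl3l*, the muscle form, was near background in both groups, at 4.39, 4.58, 4.59, 4.54 and 4.51 in the wild-type and 4.34, 4.59 and 4.54 in the 2lox/2lox hearts. The groups covered the same range, with a log2 fold change of −0.028 (SE 0.074, limma adjusted p = 0.940). *Rpl3*, a core protein near the catalytic centre, was read only by shared probe sets. The bright one (with the pseudogene Gm12816) gave 13.34 to 13.40 in wild-type and 13.31 to 13.35 in 2lox/2lox hearts, a log2 fold change of −0.049 (SE 0.050, limma adjusted p = 0.801). The dim one (with Gm12816 and Gm5879) read 5.01, 4.63, 4.89, 5.01 and 4.76 against 5.14, 5.06 and 5.03. There all 2lox/2lox hearts lay above the wild-type range, with heart 3 at 5.03 close to the wild-type maximum of 5.01, and the change of 0.22 (SE 0.092) did not pass (limma adjusted p = 0.434). With the bright probe set as its stand-in for *Rpl3*, the pair changed by 0.021 (SE 0.074, exact permutation p = 0.786). These 2 pairs are the ones tested, and their p-values are not adjusted.

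*Rpl10*, X-linked and part of the tRNA corridor of the large subunit, was likewise read only together with a pseudogene, Gm5621. Its first probe set gave 13.42, 13.37, 13.34, 13.39 and 13.38 in the wild-type and 13.20, 13.22 and 13.31 in the 2lox/2lox hearts. All hypomorphic hearts were lower, with 2lox/2lox heart 3 nearest to the wild-type range, and the log2 fold change was −0.14 (SE 0.054, limma adjusted p = 0.388). Hearts 1 and 2 are those with the larger 3′ minus 5′ difference, and with that difference as a covariate the log2 fold change was −0.070. The part of that difference in the result was not tested further. With 1 heart left out the log2 fold change ran from −0.17, without 2lox/2lox heart 3, to −0.12, without 2lox/2lox heart 1. The other probe set read 13.33 to 13.38 in wild-type and 13.24 to 13.33 in 2lox/2lox hearts, which overlap, with −0.066 (SE 0.052, limma adjusted p = 0.720).

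In all, the groups did not overlap for 5 of the 15 probe sets, with 3 higher (*Rpl39l*, *Rps4l* and the dim shared set of *Rpl3*) and 2 lower (*Rps4x* and the first set of *Rpl10*). Over all 45101 probe sets this held for 6.11%, with 3.41% higher and 2.71% lower. *Rpl39l* and *Rps4l* were chosen for their genotype difference, so their separation was given in advance. Nothing is read from the count for this reason.

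The rest of the cytosolic ribosome gave the background for the pairs. Of 74 other ribosomal protein genes, 41 had a probe set of their own, 25 only shared ones and 8 none. None of the 41 passed the threshold in limma, and none had an unadjusted p under 0.05, with 15 positive and 26 negative log2 fold changes and a median of −0.023, against −0.0036 over all probe sets. Their mean log2 level was 11.99 to 12.09 in the wild-type and 12.01 to 12.05 in the 2lox/2lox hearts. Over all probe sets 0.0798% passed, so a count of 0 among 41 genes is close to that share. Many of the 41 are bright (median level 13.11), where an array can compress differences. Others are far dimmer, such as *Rps27* (wild-type mean 5.67), and may read their transcript poorly. The 105 shared probe sets of these genes held none past the threshold (in limma, 1 was higher and 0 were lower where the unadjusted p was under 0.05), and their median was −0.024. The share of all probe sets with an unadjusted p under 0.05 was not counted, so nothing is read from either count at that cutoff.

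The extremes among the 41 genes did not pass the test either. *Rpl12*, a stalk-base protein, had the highest log2 fold change at 0.13 (SE 0.22), followed by *Fau*, which encodes a ubiquitin-like fusion with a small-subunit protein, at 0.071 (SE 0.060) and *Rpl13a* at 0.046 (SE 0.050). The lowest were *Rpl27a* at −0.17 (SE 0.34), *Rpl37* at −0.11 (SE 0.070) and *Rps16* at −0.11 (SE 0.075), and the probe set of *Rps16* was at background (wild-type mean 4.21). *Rpl12* and *Rpl27a* also had a wide spread among the wild-type hearts, 5.71 to 6.97 and 6.72 to 8.29. The groups did not overlap for 4 of the 41, with 1 higher (*Rpl13a*) and 3 lower (*Rps14*, *Rpl10a* and *Rps27*), against 6.11% of all probe sets, and nothing particular to these genes is read from so few. Among the other paralogs outside the 10, *Rps27l* gave 0.0089 (SE 0.054) and *Rpl7l1* −0.059 (SE 0.080), neither past the threshold.

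**Figure D4:**
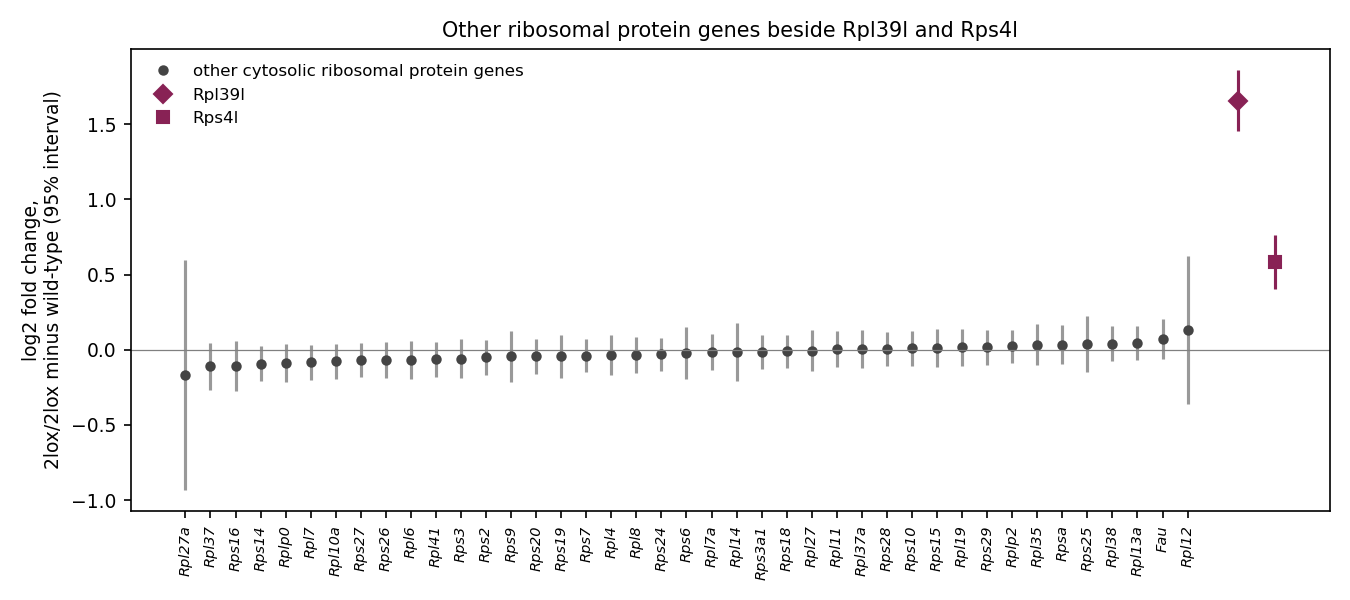
The log2 fold change, 2lox/2lox minus wild-type, with its 95% limma interval is plotted for 41 other cytosolic ribosomal protein genes in increasing order (1 probe set per gene, 3 and 5 hearts), with *Rpl39l* (diamond) and *Rps4l* (square) at the right. The 41 genes lie between −0.17 and 0.13, and the paralogs, which were chosen for their values, at 1.66 and 0.58.

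The genes whose pattern was most like each raised paralog were found by the mean absolute difference over the 8 hearts, after each gene's wild-type mean was subtracted, among 18193 other genes. For *Rpl39l* they were *Meioc* (0.21), *Tesc* (0.21) and *Tcfl5* (0.23), and for *Rps4l* they were *Tmem44* (0.086), *Ppp2r3d* (0.087) and *Ccl9* (0.092). This measure takes in the genotype difference for which both paralogs were chosen, so these neighbours are a description. The *Rpl39l* neighbours do not share its highest heart: *Meioc* was highest in 2lox/2lox heart 2 (5.48) and *Tcfl5* in heart 1 (5.43), where *Rpl39l* peaked in heart 3.

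Markers of other cells were read beside the paralogs, since in whole hearts fewer cells of a type and less RNA per cell cannot be told apart. The lists were drawn up with earlier results of these data known. Every marker that passed is among the genes the paper reports as changed. Over all probe sets 0.0621% passed as higher, and nothing is read from the lists' counts past the threshold. Of 21 germ cell markers 19 were measured, and 2 passed as higher, *Ddx4* by 2.87 and *Sycp3* by 0.86. The other 17 did not pass, and the list had a median of −0.032 and mean levels of 4.62 to 4.70 in wild-type and 4.81 to 4.83 in 2lox/2lox hearts. At an unadjusted p under 0.05 in limma 2 were higher and 1 lower. The share of all probe sets under this cutoff was not counted, so nothing is read from such counts in any list. Group means under 4.21, the lower quartile over all arrays, were found for 7 of the 19 in the wild-type and for 4 in the 2lox/2lox hearts. Among these markers, *Ddx4* went from 4.06 to 6.92 and *Sycp3* from 4.18 to 5.03 in the group means. *Dazl* (4.04 and 4.05) and *Sycp1* (3.74 and 3.74) were under 4.21 in both groups. Others, such as *Dnd1* (5.33 and 5.35) and *Stra8* (5.22 and 5.13), lay above 4.21 in both groups and did not pass. These examples were picked after their values were seen. The part of germ cells in the values of *Rpl39l* was not tested. Of 15 macrophage markers 3 passed as higher (*Lgals3*, *Plac8* and *Cybb*), against 0.0621% of all probe sets. All 15 had a positive log2 fold change, 11 had an unadjusted p under 0.05 in limma and the median was 0.43, with mean levels of 6.27 to 6.62 in wild-type and 6.80 to 7.01 in 2lox/2lox hearts. Since the list was drawn up with earlier results known, its higher level in the 2lox/2lox hearts is a description. The part of this list in the values of both paralogs was not tested. Of 12 skeletal muscle markers 1 passed (*Tnni2*, 1.32) and 3 were higher at an unadjusted p under 0.05 in limma, with mean levels of 5.67 to 6.18 and 5.93 to 6.10, and of 9 erythroid markers measured none passed (0 at an unadjusted p under 0.05 in limma), with mean levels of 4.91 to 6.28 and 5.16 to 5.65. The fit that included the 3′ minus 5′ difference called 9 of 45101 probe sets, against 36 in the main fit. *Rps4l* was no longer past the threshold in it. There the log2 fold change of *Rpl39l* was 1.81 and that of *Rps4l* was 0.63. The part of RNA quality in both values was not tested further.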

How the data were processed

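The authors deposited normalized log2 expression levels for 8 arrays. The submitters' processing notes list limma with no version number. How probes were summarized is not stated there or in the methods used here. Normalization and background treatment could change low values, such as those of *Rpl39l*, most. No detection calls were used. Arrays have no sequencing depth, so their number limits the precision. Genes came from the platform annotation, updated to a RefSeq table of GRCm38.p6: 34958 probe sets have 1 gene (99.4% matched), 932 several and 9211 none.

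All 45101 probe sets entered 1 fit of limma 3.58.1 under R 4.3.3 (lmFit and eBayes, two-sided, Benjamini-Hochberg over all, threshold 0.05) as 2lox/2lox minus wild-type. A gene in a list or pair is its brightest probe set annotated to it alone. Pairs were tested by exact permutation. The planned pair of *Rpl10l* could not be made, and a shared probe set stood in for *Rpl3*. Named are all probe sets of the 10 genes, the 3 highest and 3 lowest other ribosomal protein genes, the 3 nearest patterns, control genes and up to 3 markers a list with the smallest p. *Dazl*, *Sycp1*, *Dnd1*, *Stra8* and the ribosomal protein genes without overlap were named after their values were seen. The members and lists were chosen with earlier results of these data known. Alternatives were trend or robust moderation, quantile normalization, median centring, dim filters (log2 of at least 5 in 3 hearts, or a mean above the median), the replicate number as a block, array weights, covariates (a sex score or the 3′ minus 5′ difference), and each heart left out. Sequences were scanned in Python 3.11.15, and the fit was tested on simulated data.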

Additional observations from a re-analysis of the deposited data

Results flagged for a closer look

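Of 19 sets of 5 wild-type values examined, 2 held a heart that stood apart by Dixon's criterion, which chance alone meets in about 1 of 20 sets. Wild-type heart 2 was the lowest for the brightest *Rpl22* probe set at 12.87, with a gap of 0.712 of the range against a limit of 0.71. Wild-type heart 1 was the highest for the second probe set shared by *Rpl10* and Gm5621 at 13.38, with a gap of 0.784 of the range.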

How the results depend on the processing

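Of 264 values of a log2 fold change under an alternative, 234 kept their direction and their side of the threshold. Past the threshold were 2 of the 15 probe sets, and 2 also with an intensity trend, robust moderation, quantile normalization, array weights and the filter of at least 5 in 3 hearts, which *Rpl39l* passes only through its 2lox/2lox hearts. Those fits called 45, 36, 39, 36 and 29 probe sets in all, against 36 in the main fit. The member count was 1 with median centring, the sex score or the 3′ minus 5′ difference as covariate, where *Rps4l* was lost at 0.58, 0.58 and 0.63 (limma adjusted p = 0.0563, 0.0558 and 0.36). Over all 45101 probe sets these fits called 33, 45 and 9. The member count was also 1 with the filter on the mean, added after seeing the data, which removes *Rpl39l* and called 24 of 22550. With 1 heart left out the member count was 1 to 2. *Rpl39l* passed in all 8 fits (1.55 to 1.73), and *Rps4l* (0.54 to 0.63) only without 2lox/2lox heart 3. That fit called 797 of 45101 probe sets, against 36 in the main fit and 17 to 41 with any other heart left out. Both genes were chosen on this contrast, so these counts support nothing. With the replicate block the member count was 0, and 0 probe sets passed in all. *Rpl39l* was then 1.69 (limma adjusted p = 0.0534) and *Rps4l* 0.52 (limma adjusted p = 0.294). Whether the numbers pair the hearts is not given. Deviations of same-numbered hearts correlated at 0.01, −0.076 and −0.049, and none of the 3 2lox/2lox hearts correlated best with its own number. With so few hearts and no litter given, these values cannot settle it. None of the other ribosomal protein genes passed under any of these settings. At most 1 of 41 had an unadjusted p under 0.05 in limma, a cutoff whose share over all probe sets was not counted.

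Values close to 0 turned sign; the cause was not tested. *Rpl39* was 0.0089 with quantile normalization and 0.0084 with the sex score. With the 3′ minus 5′ covariate the dim *Rps4x* probe set was 0.026, *Rpl3l* 0.0041, and the *Rpl22* probe sets 0.0099 (second) and −0.023 (brightest). The *Rpl3l* pair was −0.0090 with quantile normalization. With 1 heart left out the ranges were −0.022 to 0.019 for *Rpl39*, −0.031 to 0.014 for its shared probe set, −0.074 to 0.048 for dim *Rps4x*, −0.079 to 0.047 for *Rpl3l*, −0.038 to 0.048 and −0.017 to 0.045 for *Rpl22*, −0.032 to 0.084 for the *Rpl3l* pair and −0.14 to −0.027 for the *Rpl22l1* pair, whose exact permutation p was 0.0476 without 2lox/2lox heart 3. That p is the smallest the test can give with a 2lox/2lox heart left out.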
